A study of Mus musculus with 15 samples.

Results

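In AKP colon cancer organoids recovered from first-round liver metastases (Met1), 69 protein-coding genes were low compared with organoids from every other group of the series. The genes were chosen by their measured levels in CPM (a gene's count divided by its library's total count, times 1000000). A gene was taken when its mean was at least 3 CPM in each of the other 4 groups, when each of those means was at least 3 times the Met1 mean, and when the highest Met1 library lay below the lowest of the other 12. The choice took 69 of 21802 protein-coding gene IDs, in a table of 54418 gene IDs in all. The same rule applied to the other groups found 0 genes low in Met2 alone, 30 in Met3, 1 in Primary2 and 3 in Primary3. Because these values chose the genes, the difference between Met1 and the other groups is given as a description, with no test.

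AKP is the genotype in the labels, and organoids of this kind carry mutant Apc and Trp53 among other lesions. The study passed such organoids through C57Bl6 mice by transplantation into the colon, and set up cultures from the tumours of each round. Liver metastases gave Met1, Met2 and Met3, named by their round, and primary tumours gave Primary2 and Primary3, with 3 organoid libraries (reps) in each of these 5 groups. All groups share the AKP genotype, the recipient strain and culture as organoids, and no primary tumour group of round 1 was analysed here, so round and tissue of origin cannot be told apart for Met1. Whether the reps of a group come from several mice, several lines or repeat cultures of a single line is not stated in the labels, and p-values cover no spread other than that among these libraries, which may be technical.

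Total counts ran from 14122203 to 21306543 per library, and 3 counts corresponded to 0.141 to 0.212 CPM. The epithelial marker Epcam stood at 710 to 1041 CPM and the intestinal factor Cdx2 at 13.2 to 101 CPM in all 15 libraries, while Cdx1 of the colon did not exceed 0.284 CPM. The summed CPM of 8 fibroblast markers did not exceed 5.09 and that of 5 endothelial markers did not exceed 0.569. Lyz2 of macrophages was at 0 throughout and the pan-leukocyte gene Ptprc did not exceed 0.389 CPM. Csf1r, also on the leukocyte list, was at 0 to 0.474 CPM in the metastasis libraries, against 1.69 to 7.63 CPM in the primary libraries. The sum of 6 hepatocyte markers was 1.34 to 6.53 CPM in Met1, against 0.0616 to 0.889 CPM elsewhere, most of it from Alb. The macrophage gene Cd68, which many epithelia also express, was at 19.7 to 29.2 CPM in Met1, against 3.67 to 22 CPM elsewhere, and the sum of 4 neural and glial markers was 0.641 to 1.26 CPM in Met1, against 1.52 to 10.5 CPM elsewhere. The part of these levels in the results was not tested. Sox2, a factor of pluripotency and foregut, stood at 8.95 CPM in Met1 rep 1 and 134 CPM in Met2 rep 1, and did not exceed 0.205 CPM in the other libraries. Met3 rep 1 and Primary2 rep 1 stood apart within the genes described here.

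The 69 genes are described in a pair of groups. The larger, called the embryo-gene block here, is led by families known from the 2-cell embryo of the mouse, though not every gene in it has that link. At the 2-cell stage the embryo switches on its own genome, and with it several multicopy gene families, among them Zscan4, Tcstv1 and Tcstv3, Usp17l and Zfp352. In cultured embryonic stem cells the same genes are silent in most cells and come on together in a rare, transient 2-cell-like state that is driven by the transcription factor Dux, whose gene is named Duxf3 in the annotation used here. The smaller group is mixed. It holds 4 Ly6 proteins, 3 keratins and secreted proteins of epithelia, 2 chemokines, 3 transcription factors, 5 enzymes, 2 lens proteins, 2 channels or transporters and 2 calcium-binding or trafficking proteins. The genes were sorted into groups and families after their values were seen. None of the 69 belonged to any of the 22 gene lists set up for these organoids, which covered intestinal cell types, interferon response, matrix, metabolism and cell cycle.

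The embryo-gene block held 46 genes. Of these, 33 belonged to 6 families or chromosomal clusters, and the other 13 were placed in the block because of their symbol, their shared sequence or their covariation with Zscan4c, so covariation is not independent evidence for them. The Zscan4 family gave 7 genes within chr7:10900740-11614112 (GRCm38, Zscan4b, Zscan4c, Zscan4d, Zscan4f, Zscan4-ps1, Zscan4-ps2 and Zscan4-ps3, the last 3 being listed as protein coding in spite of their names). The Tcstv cluster gave 9 genes within chr13:119893388-120318178, among them Tcstv1, Tcstv3, AF067061, BC147527 and B020031M17Rik. A cluster on chromosome 5 between 94066151 and 95746617 gave 7 genes, among them Gm7942, Gm7982 and AA792892. A cluster on chromosome 12 between 87514316 and 88324026 gave 4 genes, Gm8300, Gm4027, Gm5662 and Gm5039. On chromosome 4, between 143551700 and 143951016, lay BC080695, Pramef25 and Gm13078, of which the last pair are named as Pramel genes in RefSeq, the family of the PRAME antigen. The Usp17l family of deubiquitinating enzymes gave Usp17lb, Usp17lc and Usp17le on chromosome 7. In all, 35 of the 46 lay within 1 Mb of another of the 69 genes, as did 7 of the 23 genes outside the block.

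Members of these families are near copies of each other, which bears on every single-gene value. Of the 31-base words in a gene's annotated transcripts, a median of 70.3% occurred in another gene for the 46, against 0.143% for the other 23 and 0.417% for the 11244 protein-coding genes with a mean of at least 3 CPM in some group. At least 20% of words were shared by 42 of the 46 genes and by 2 of the other 23 (Krt6a at 51.3%, mainly with Krt6b, and S100a4 at 49.2%, with Gm42674), and by 7.98% of those 11244 genes. For 8 genes of the block all words were shared, Gm7982 and BC061212 among them, so their counts rest on how the quantification divided ambiguous reads. Gm6763 and Gm21293 also overlap each other on chromosome 10. Values of single members of a family are therefore uncertain. Family sums here add only genes that met the rule, so they lessen only the uncertainty from reads divided among those genes. Reads divided with copies left out of a sum stay uncertain in it. Zscan4b shared 90.6% of its words with Zscan4e, and Gm4027 shared 95.5% with BB287469, and neither partner was summed. Other genes shared most with a summed gene, such as Zscan4c with Zscan4-ps2 (81.6%). In the block, 3 genes shared under 10% of their words with other genes: Chit1 (0%), a secreted chitinase, Tmem92 (3.57%), a membrane protein, and Dhtkd1 (7.2%), a mitochondrial dehydrogenase of lysine breakdown. The largest shares of the words of Dhtkd1 were found in Gm47486 (4.62%), Gm48799 (4.07%) and Gm48754 (4.05%). These are not protein coding and also met the rule. Gm47486 averaged 560 CPM in Met3, against 16.7 CPM for Dhtkd1, and its part in the counts of Dhtkd1 was not tested.

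The likeness extended to sequence upstream of some of the genes, shown here for 2 pairs within the block, beside 1 gene outside it. The 2 pairs are among the most alike in the block, with 95.7% and 89.7% identity after alignment. Many other pairs were far less alike. AF067061 and BC147527 of the Tcstv cluster had 49.6%, and the lowest pair, Zfp352 and Gm4027, had 44.8%. RefSeq promoters (GRCm38.p6, 250 bases before to 50 bases after the start, 5′ to 3′ on the gene's strand, every CpG dinucleotide in capitals) were found for 30 of the 69 genes, with 35 promoters. Zscan4f (chr7:11397665-11397964, plus strand) and Zscan4b (chr7:10905001-10905300, minus strand) had the same base at 287 of 300 positions.
Zscan4f: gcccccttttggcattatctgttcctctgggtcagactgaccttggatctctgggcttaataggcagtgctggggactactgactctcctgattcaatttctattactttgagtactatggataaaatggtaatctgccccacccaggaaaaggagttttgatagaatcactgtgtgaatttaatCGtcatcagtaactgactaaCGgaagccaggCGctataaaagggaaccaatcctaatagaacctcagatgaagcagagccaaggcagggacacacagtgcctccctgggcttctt
Zscan4b: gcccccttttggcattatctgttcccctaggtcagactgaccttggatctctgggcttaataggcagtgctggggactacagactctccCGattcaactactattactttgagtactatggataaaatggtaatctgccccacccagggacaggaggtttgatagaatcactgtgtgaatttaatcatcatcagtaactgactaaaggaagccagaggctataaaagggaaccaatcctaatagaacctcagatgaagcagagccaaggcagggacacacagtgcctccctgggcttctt
In the Tcstv cluster, AF067061 (chr13:120262845-120263144, plus strand) and Gm21761 (chr13:119913419-119913718, minus strand) had the same base at 265 of 300 positions.
AF067061: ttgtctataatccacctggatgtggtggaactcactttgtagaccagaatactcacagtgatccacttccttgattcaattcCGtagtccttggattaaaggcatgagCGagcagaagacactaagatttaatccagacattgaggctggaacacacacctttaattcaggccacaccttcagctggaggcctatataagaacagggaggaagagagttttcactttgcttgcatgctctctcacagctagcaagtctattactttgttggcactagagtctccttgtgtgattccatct
Gm21761: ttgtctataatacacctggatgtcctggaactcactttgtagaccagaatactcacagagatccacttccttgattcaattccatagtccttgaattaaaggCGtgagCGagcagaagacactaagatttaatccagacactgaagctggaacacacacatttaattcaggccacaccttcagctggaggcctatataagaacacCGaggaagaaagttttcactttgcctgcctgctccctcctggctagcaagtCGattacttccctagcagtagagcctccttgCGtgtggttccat
Trpv4, outside the block (chr5:114658372-114658671, minus strand), is shown for its CpG content.
Trpv4: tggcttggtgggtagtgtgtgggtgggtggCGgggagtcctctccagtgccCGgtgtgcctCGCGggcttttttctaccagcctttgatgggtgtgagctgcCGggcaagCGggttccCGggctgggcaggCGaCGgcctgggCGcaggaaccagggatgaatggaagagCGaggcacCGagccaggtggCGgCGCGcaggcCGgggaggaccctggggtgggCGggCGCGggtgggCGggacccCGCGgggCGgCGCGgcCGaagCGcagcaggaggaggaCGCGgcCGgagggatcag

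The 17 promoters of the block held a median of 3 CpG (range 1 to 14, the highest in Dhtkd1), against 10.5 in the 18 promoters of the other genes (range 1 to 45) and 7 in all 32851 RefSeq promoters. At most 6 CpG were found in 16 of the 17, in 6 of the 18, and in 47.9% of all promoters. Of the motifs searched on both strands, the TATA box (TATAAA) occurred in 6 of the 17, in Zscan4b, Zscan4c, Zscan4d, Zscan4f, Usp17lb and Usp17lc, in 2 of the 18, and in 13.6% of all promoters. CCAAT occurred in 12 of the 17, in 4 of the 18 and in 37.4% of all promoters. The GC box GGGCGG occurred in 1 of the 17, in 6 of the 18 and in 35.7% of all promoters. The pattern TGANTCA, looser than the AP-1 site TGAGTCA or TGACTCA, occurred in 6, in 2 and in 7.81%. In Zscan4f, AF067061 and Gm21761 it matched only as TGATTCA, which is not an AP-1 site. The CDX motif TTTATNG occurred in 4, in 1 and in 10.9%, and in the Zscan4 promoters it covers the same letters as the TATA box. For the TCF/LEF motif CTTTGA the figures were 5, 1 and 16%. For the GATA motif AGATAA they were 5, 4 and 11.2%, and for the E-box CACGTG they were 1, 3 and 7.15%. For the TEAD motif GGAATG they were 0, 2 and 14.7%, for the ETS motif CCGGAAG they were 0, 1 and 8.86%, and for the cAMP-response motif TGACGTC they were 0, 1 and 3.21%. The 4 Zscan4 promoters are near copies and count as little more than 1 observation, and a match says nothing about whether a factor binds there.

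The block as a whole was about an order of magnitude lower in Met1 than elsewhere. Its summed level was 66.4, 11.2 and 75.9 CPM in the 3 Met1 libraries, against 397, 898 and 1089 CPM in Met2, 3278, 1025 and 1060 CPM in Met3, 1153, 172 and 238 CPM in Primary2 and 429, 429 and 320 CPM in Primary3. The group mean was 15.5 times the Met1 mean in Met2, 35 times in Met3, 10.2 times in Primary2 and 7.68 times in Primary3. Libraries of 1 group differed widely: by 6.8 times within Met1, 3.2 times within Met3 and 6.71 times within Primary2, and the lowest library outside Met1 (Primary2 rep 2) exceeded the highest Met1 library by 2.26 times. Without Primary2 rep 1 the Primary2 mean was 205 CPM, and without Met3 rep 1 the Met3 mean was 1042 CPM. In bulk libraries such as these, fewer cells that express a gene and less RNA per cell cannot be told apart.

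**Figure D1:**
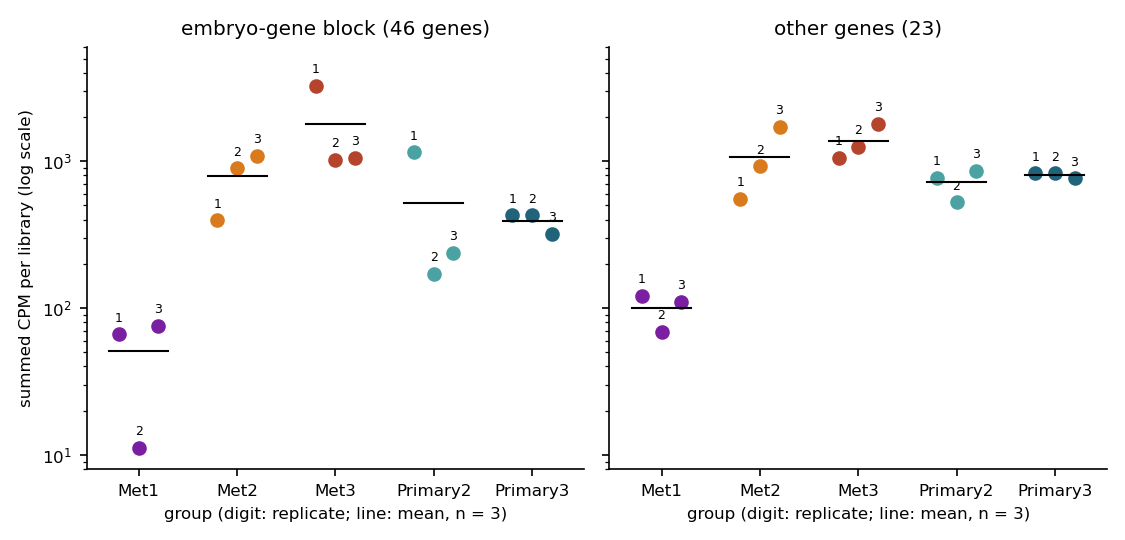
Summed CPM per library (log scale) of the 46 genes of the embryo-gene block (left) and of the 23 other genes (right), by group, with replicate numbers beside the points and the group mean as a line. Met1 lies lowest in both panels, and Met3 rep 1 (3278 CPM) and Primary2 rep 1 (1153 CPM) stand above the other libraries of their groups on the left only.

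The Zscan4 genes encode zinc-finger proteins with a SCAN domain that take part in telomere maintenance in mouse embryonic stem cells. Zscan4f stood at 5.16, 0.694 and 6.3 CPM in Met1, against 31.1, 70.7 and 103 CPM in Met2, 278, 72.2 and 95.2 CPM in Met3, 89.2, 13.1 and 14.3 CPM in Primary2 and 31.9, 36.9 and 28.1 CPM in Primary3. Zscan4c stood at 2.36, 0.214 and 1.9 CPM in Met1, against 14.2, 31.2 and 40.1 CPM in Met2, 114, 32.1 and 41.4 CPM in Met3, 52.3, 8.07 and 7.44 CPM in Primary2 and 15.8, 21.3 and 12.6 CPM in Primary3. In both genes Met1 rep 2 was lowest and Met3 rep 1 highest, and no Met1 library reached any other library. The sum of the 7 Zscan4 genes that met the rule was 14.2, 2.19 and 15.7 CPM in Met1, against 37.1 CPM in Primary2 rep 2, the lowest library outside Met1. It leaves out Zscan4a and Zscan4e. The rule required such a gap of each gene summed, so the gap of the sum follows from the choice.

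Tcstv1 and Tcstv3 are transcripts of the 2-cell embryo, and Tcstv1 was among the genes of the block with the smallest p in the comparisons of metastasis with primary tumour organoids. Tcstv1 stood at 0.769, 0.16 and 0.711 CPM in Met1, against 5.62, 14.5 and 18.9 CPM in Met2, 39.5, 14.2 and 14.2 CPM in Met3, 10.8, 1.45 and 3.41 CPM in Primary2 and 3.61, 3.54 and 3.54 CPM in Primary3. AF067061 of the same cluster stood at 0.604, 0 and 0.332 CPM in Met1, against 4.36, 11 and 14 CPM in Met2, 32, 12.9 and 12.3 CPM in Met3, 10.1, 1.36 and 1.73 CPM in Primary2 and 4.82, 3.97 and 3.49 CPM in Primary3. Within Primary2, rep 1 held several times the level of reps 2 and 3 for both. Over the 9 genes of the cluster the lowest other group mean exceeded the Met1 mean by 6.01 to 13.1 times.

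Zfp352, a zinc-finger gene first described from 2-cell embryos (21.5% of words shared), stood at 0.494, 0.16 and 0.521 CPM in Met1, against 3.11, 11.3 and 6.98 CPM in Met2, 31.2, 9.63 and 8.45 CPM in Met3, 10.6, 1.6 and 2.29 CPM in Primary2 and 4.96, 3.54 and 2.91 CPM in Primary3. Sp110, a nuclear body protein known from macrophage defence, stood at 2.91, 0.214 and 2.13 CPM in Met1, against 10.9, 24 and 27.2 CPM in Met2, 100, 35 and 35.5 CPM in Met3, 27.1, 3.9 and 6.22 CPM in Primary2 and 7.08, 10.1 and 5.71 CPM in Primary3. Of its words 48.2% were shared, 36.1% with the pseudogene Gm16026, which also met the rule. How far its counts come from reads of that pseudogene was not tested. Chit1, the gene of the block with no shared words, stood at 0.604, 0.427 and 0.616 CPM in Met1, against 2.25, 4.56 and 6.58 CPM in Met2, 19, 7.59 and 7.48 CPM in Met3, 7.11, 1.31 and 1.78 CPM in Primary2 and 3.26, 3.78 and 2.63 CPM in Primary3. All 3 genes shared the highest library with Zscan4f, Met3 rep 1, and the lowest in Met1, rep 2, and differed from it in the order of the libraries between.

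Among genes with the largest fold, Gm16513 of the chromosome 5 cluster had 0 counts in all 3 Met1 libraries, which puts the lowest other group mean at least 61.9 times higher (against a floor of 3 counts over the Met1 group). Gm6763 and Gm4513, predicted genes on chromosomes 10 and 7, had ratios of 18.3 and 16. Over the 46 genes the ratio ran from 4.36 to 61.9, the bound of Gm16513, with a median of 7.95, the gap between the highest Met1 and the lowest other library from 1.07 to 5.04 times where Met1 had counts, and the lowest group mean outside Met1 was that of Primary3 in 42 genes. The Primary2 means include the high rep 1. Without it the block's summed mean was 205 CPM in Primary2, below the 393 CPM of Primary3.

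The 46 genes varied closely together from library to library. All 46 were highest in Met3 rep 1, 44 had their lowest Met1 value in rep 2, and 39 had their lowest value outside Met1 in Primary2 rep 2. Over the 12 libraries outside Met1, Pearson's r of log2(CPM + 0.1) with Zscan4c ran from 0.79 to 1 with a median of 0.95, and with group means removed the median was 0.94. Over the 23 other genes r ran from −0.63 to 0.82 with a median of 0.19, the highest being Bfsp1. The points share their libraries and their depth, the families share reads, and some genes were placed in the block by their covariation, so these values are a description. The 3 genes that shared under 10% of their words had r of 0.98 (Chit1), 0.89 (Tmem92) and 0.95 (Dhtkd1). All 3 are among the 13 genes placed by symbol, shared sequence or covariation, so their r is not independent evidence.

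**Figure D2:**
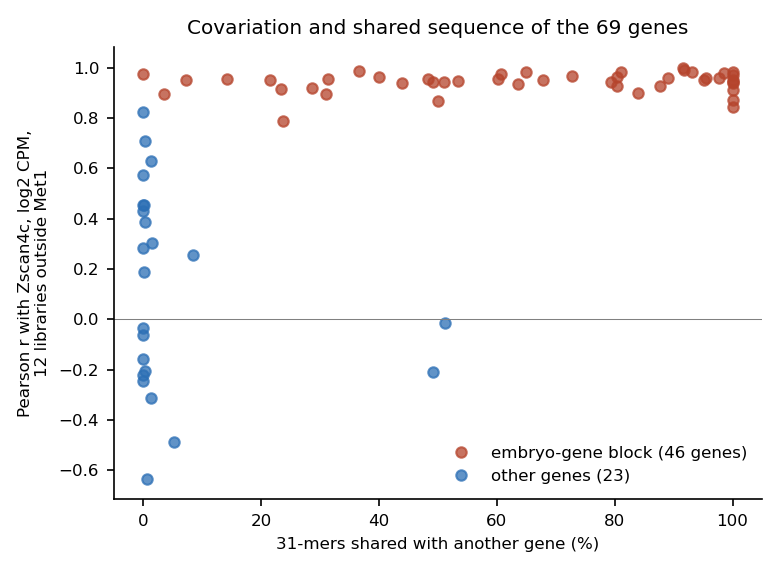
Pearson's r with Zscan4c over the 12 libraries outside Met1 (vertical axis) against the percentage of 31-base words that a gene shares with other genes (horizontal axis), 1 point per gene. The embryo-gene block lies between 0.79 and 1 across the whole range of sharing, and the other genes lie between −0.63 and 0.82, nearly all of them at low sharing. Some genes were placed in the block by their covariation, so its high r and the lower r of the other genes are partly a result of that choice.

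Beyond the 69, 41 genes of other annotated types met the rule. They included 12 lincRNAs, 7 processed pseudogenes, 5 antisense genes and 5 small nuclear RNA genes, and 35 of the 41 had r of at least 0.75 with Zscan4c. Of the 41, 17 spanned 4000 to 6500 bases, and 16 of these shared 31-base words with at least 1 other of the 41, with a median of 20 such partners and 94.1% of their words shared. The sum over all 41 genes was 307, 96 and 305 CPM in Met1, against 746 CPM in Primary2 rep 2, the lowest of the other libraries.

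Other genes linked to the 2-cell state were looked up after the values of the block had been seen. Duxf3 was near the detection limit, with 1 count over the 3 Met1 libraries, against 7, 8 and 12 counts in Met2, 56, 10 and 18 counts in Met3, 12, 0 and 7 counts in Primary2 and 1, 6 and 2 counts in Primary3. Dppa2 and Dppa4, which act upstream of Dux in embryonic stem cells, were at the same limit, with 27 and 4 counts over all 15 libraries, and the mean CPM of Dppa2 over the 12 other libraries was 0.97 times its Met1 mean. Zscan4e, which met the fold and missed the rule only by overlap, stood at 1.65, 0.214 and 2.42 CPM in Met1, against 22.1, 2.35 and 4.08 CPM in Primary2, and reached 57.9 CPM in Met3 rep 1. The pluripotency genes Pou5f1, Nanog, Zfp42 and Lin28a did not exceed 0.278 CPM in any library, unlike Sox2 in the 2 libraries named before. For 11 genes known to restrain the 2-cell state in embryonic stem cells, among them Trim28, Setdb1, Kdm1a, Dnmt1 and the chromatin assembly genes Chaf1a and Chaf1b, the mean of the 12 other libraries was 0.761 to 1.46 times the Met1 mean. Pooling hides group differences. Smchd1 averaged 72.9 CPM in Met1, 41.2 CPM in Met2 and 79 CPM in Primary2, and Chaf1b 27.2 CPM in Met1 and 44.4 CPM in Primary2. Ehmt2 was at 146 to 161 CPM in Met1, above every other library (highest 140 CPM, Primary2 rep 3). Gata6, the transcription factor of the series title, averaged 19.2 CPM in Met1, against 0.441 CPM in Met2, 0.0355 CPM in Met3, 5.3 CPM in Primary2 and 7.32 CPM in Primary3. Its mean was thus highest in Met1, where the block was lowest, but libraries overlapped. Its Met1 libraries stood at 6.53, 28.7 and 22.4 CPM. Met1 rep 1 lay below Primary2 rep 2 (9.01 CPM) and Primary3 reps 1 and 3 (8.07 and 9.43 CPM).

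The other 23 genes were low in Met1 without a common pattern elsewhere. They are the genes left after the sorting, which used covariation with Zscan4c for some genes, so this is partly a result of that choice. Their summed level was 121, 69 and 110 CPM in Met1, against 557, 926 and 1721 CPM in Met2, 1059, 1252 and 1797 CPM in Met3, 770, 526 and 860 CPM in Primary2 and 827, 829 and 765 CPM in Primary3. Reps of Primary2 differed by 1.63 times, against 6.71 times for the embryo-gene block. The highest group mean was that of Met3 in 9 genes, Met2 in 5, Primary3 in 5 and Primary2 in 4. Met2 rep 1 held the lowest value outside Met1 in 9 of the 23 genes.

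**Figure D3:**
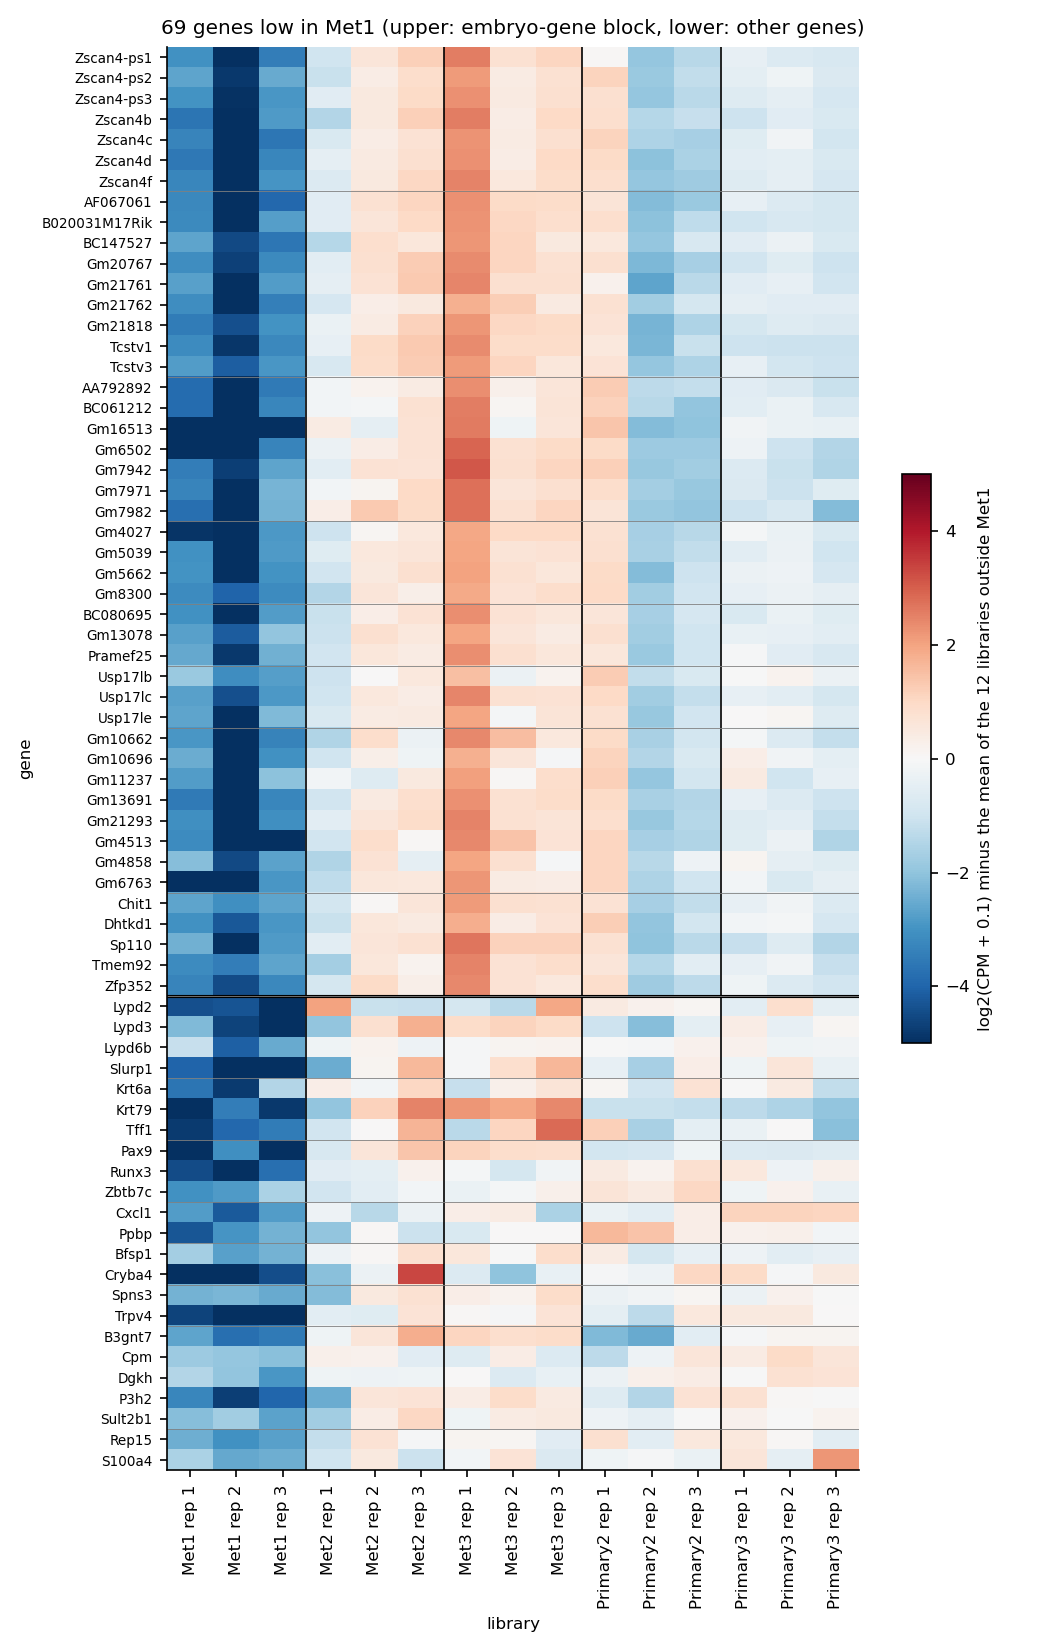
Level of each of the 69 genes (lines) in each library (columns), as log2(CPM + 0.1) minus the gene's mean over the 12 libraries outside Met1; thick line between the embryo-gene block and the 23 other genes, thin lines between families. The 46 upper genes are all highest in Met3 rep 1 and 39 of them are lowest outside Met1 in Primary2 rep 2, while the highest and lowest libraries of the 23 lower genes vary.

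Trpv4, a calcium-permeable channel that responds to osmotic and mechanical stimuli, stood at 1.43, 0.641 and 0.426 CPM in Met1, against 26.1, 24.7 and 59.8 CPM in Met2, 38.7, 35.9 and 59.5 CPM in Met3, 26.9, 15 and 53.5 CPM in Primary2 and 53.1, 52.6 and 38.4 CPM in Primary3. Its lowest library outside Met1 exceeded the highest Met1 library by 10.5 times, and its groups outside Met1 overlapped. Spns3, a putative lipid transporter of the spinster family, had a ratio of 4.95.

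Of the transcription factors, Runx3, a RUNT-domain factor with roles in gut epithelium and lymphocytes, stood at 0.933, 0.16 and 1.56 CPM in Met1, against 15.5, 16.4 and 26.9 CPM in Met2, 21.2, 12.4 and 20.5 CPM in Met3, 31, 26.1 and 39.6 CPM in Primary2 and 32.8, 19.3 and 27.3 CPM in Primary3. For its relatives Runx1 and Runx2 and their shared partner Cbfb, the ratio of the lowest other group mean to the Met1 mean was 0.708 to 1.35. Pax9, a paired-box factor of foregut and oral epithelium, stood at 0.0549, 0.801 and 0.0948 CPM in Met1, against 4.16, 11.2 and 19.7 CPM in Met2, 15.9, 13.8 and 13.5 CPM in Met3, 3.89, 4.13 and 6.37 CPM in Primary2 and 4.53, 4.47 and 4.74 CPM in Primary3. Zbtb7c, a zinc-finger repressor, had a ratio of 3.62.

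Keratins are the intermediate filament proteins of epithelia, and Krt6a and Krt79 are type II keratins of stratified epithelium and of hair follicles and sebaceous ducts. Krt79 stood at 2.75, 8.87 and 3.41 CPM in Met1, against 25.3, 224 and 555 CPM in Met2, 462, 383 and 528 CPM in Met3, 45.6, 45.5 and 43.6 CPM in Primary2 and 40.3, 33.6 and 25.3 CPM in Primary3. All 3 Met3 libraries and Met2 reps 2 and 3 lay above all 6 primary libraries, and Met2 rep 1 lay with the lowest of them, Primary3 rep 3. Krt6a stood at 8.02, 3.58 and 36.5 CPM in Met1, with its lowest other value at 43.5 CPM in Primary3 rep 3. Tff1, a trefoil peptide of the gastric mucosa, stood at 1.98, 3.69 and 5.07 CPM in Met1, against 29.7, 57.8 and 185 CPM in Met2, 22.6, 121 and 415 CPM in Met3, 134, 18.5 and 41 CPM in Primary2 and 46.3, 58.6 and 13.5 CPM in Primary3.

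**Figure D4:**
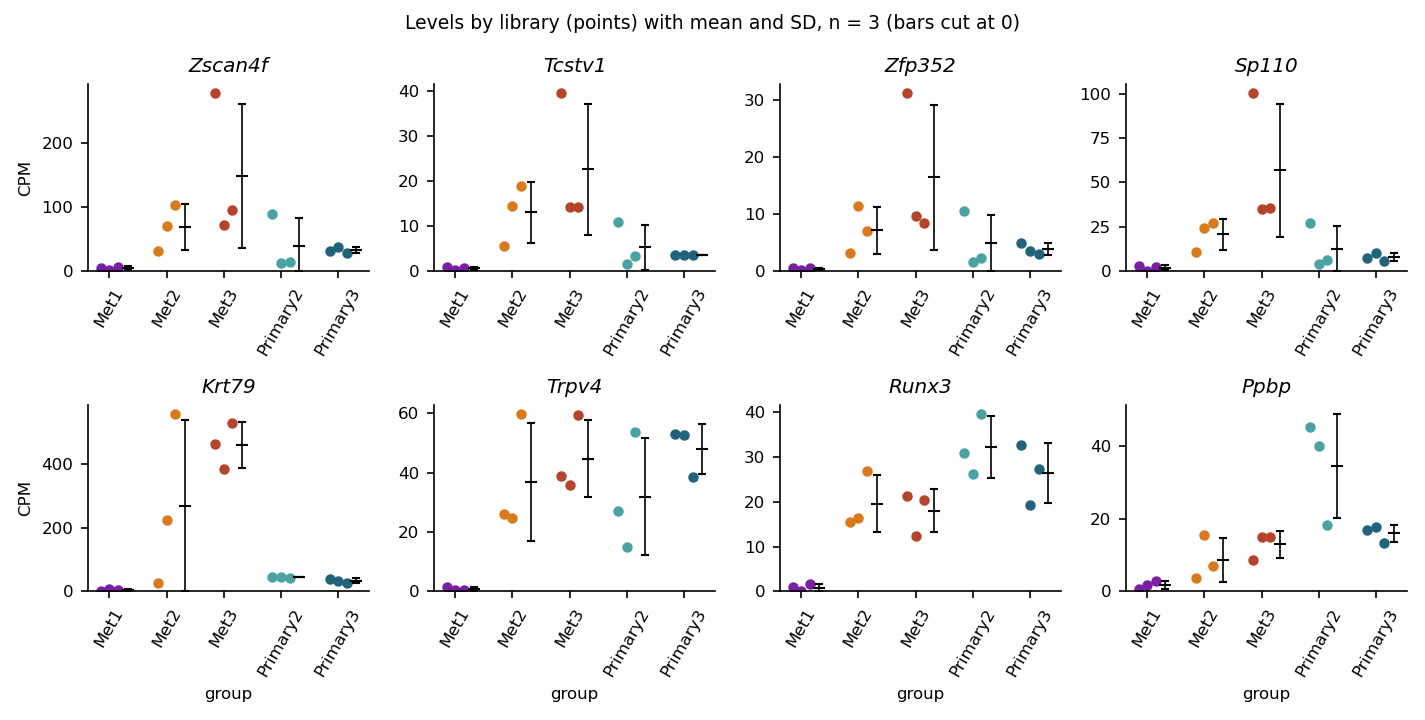
CPM of 8 of the 69 genes in each library (points), with mean and SD of each group (n = 3, bars cut at 0). The upper genes belong to the embryo-gene block and are all high in Met3 rep 1 and Primary2 rep 1, and in the lower panels Krt79 separates Met3 from both primary groups while Ppbp is highest in Primary2.

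The Ly6 group holds small disulfide-rich proteins that are secreted or anchored to the membrane. Slurp1, which is secreted by squamous epithelium, stood at 2.03, 0.694 and 0.853 CPM in Met1, against 5.95, 37.7 and 106 CPM in Met2, 33.1, 61.1 and 108 CPM in Met3, 25.5, 10.7 and 42.9 CPM in Primary2 and 29.5, 51.7 and 26.1 CPM in Primary3. Its chromosomal neighbour Lypd2 had a ratio of 29.3 and single high libraries in Met2 (76.8 CPM, rep 1) and Met3 (73.7 CPM, rep 3). Lypd3 had a ratio of 5.2, with its Met1 values at 6.42, 1.12 and 0.663 CPM and its lowest other value at 6.71 CPM in Primary2 rep 2. Lypd6b stood at 41.9, 5.39 and 16.4 CPM in Met1, against 79.4 to 110 CPM in the other 12 libraries.

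The chemokines Cxcl1 and Ppbp attract neutrophils through the receptor Cxcr2 and lie in 1 cluster of chemokine genes on chromosome 5. Cxcl1 stood at 5.11, 1.87 and 5.21 CPM in Met1, against 30.6, 13.7 and 29.5 CPM in Met2, 45.9, 48 and 12.1 CPM in Met3, 28.9, 25.1 and 45.7 CPM in Primary2 and 79.4, 79.4 and 77.1 CPM in Primary3. Ppbp stood at 0.659, 1.82 and 2.8 CPM in Met1, against 3.7, 15.5 and 6.85 CPM in Met2, 8.63, 15.1 and 15 CPM in Met3, 45.2, 39.8 and 18.3 CPM in Primary2 and 16.9, 17.7 and 13.3 CPM in Primary3. The highest levels of Cxcl1 outside Met1 were thus those of Primary3, and those of Ppbp were in Primary2.

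The remaining genes had varied roles. Cryba4, a lens crystallin, had 6 counts over the 3 Met1 libraries and a ratio of 40.6, and its highest value, 74.7 CPM in Met2 rep 3, lay far above the 1.65 to 15.2 CPM of the other 11 libraries outside Met1. P3h2, a collagen prolyl hydroxylase, had a ratio of 15.4, Rep15, a Rab15 effector, 6.42 and Sult2b1, a sterol sulfotransferase of the epidermis, 3.72. Closest inside the 3-fold limit were Dgkh (3.31, a diacylglycerol kinase), Cpm (3.32, a membrane carboxypeptidase) and S100a4 (3.5, a calcium-binding protein linked to cell motility). Closest outside it were Hist1h4m (2.94), Serpinb2 (2.74) and Tmem72 (2.71). At the limit of 3 CPM, B3gnt7 and Gm7982 lay just inside with 3.07 and 3.08 CPM in their lowest other group and Bmper just outside with 2.91 CPM.

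Pairs of the 23 genes lay within 1 Mb of each other at 3 sites, Krt6a and Krt79, Ppbp and Cxcl1, and Slurp1 and Lypd2, and the genes within 250 kb of each pair were compared between Met1 and the other 12 libraries with edgeR's quasi-likelihood test across all 14925 genes, in which 27.4% of genes were called, 14.4% higher and 13% lower, at an adjusted p under 0.05. These neighbours were picked by position. Around Krt6a and Krt79, 4 of 14 tested neighbours fell in Met1, Krt81, Krt86, Krt84 and Krt4, and 1 rose, the cholesterol esterifying enzyme Soat2. Around Ppbp and Cxcl1, 2 of 10 fell, the chemokine Cxcl5 (log2 −4.03, SE 0.70, adjusted p = 0.00235) and Mthfd2l, and 2 rose, Cxcl15 and the growth factor Ereg (3.20, SE 0.59, adjusted p = 0.00308). Around Slurp1 and Lypd2, 2 of 9 were called, Ly6d and 2010109I03Rik, and both rose. Without Met1 rep 2 the number of genes called over the whole table was 1477, against 4086 with it.

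Some gene lists, none of which held any of the 69 genes, are given for what else differed in Met1, by the same test and beside the same 14.4% of genes called higher and 13% lower. Of 15 tested intestinal stem cell genes 8 rose in Met1, among them Lgr5, Axin2, Ascl2 and Ephb2, and 1 fell, Prom1, with a median log2 change of 0.87 against −0.01 over all genes. Of 19 tested gene IDs of the hypoxia and glycolysis list 7 were called, all higher in Met1, and of 18 genes of cholesterol and lipid synthesis 7 were called, again all higher. Of 14 genes of xenobiotic and glutathione metabolism 5 fell, Nqo1, Aldh3a1, Cbr3, Gsta4 and Gsta1, and 1 rose, while the median log2 change was 0.54. Of 19 genes of matrix and adhesion 6 rose, among them Mmp7 and Fn1, and 1 fell, Timp1. Of 5 goblet cell genes 2 rose, Agr2 and Reg4, and 1 fell, Clca1. Of 20 cell cycle genes only Birc5 was called, lower in Met1. The remaining lists are not described here.

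Comparisons among the other groups take no level from the Met1 libraries, which enter the fit only through the shared estimate of spread, and ask whether the genes differed between metastasis and primary tumour organoids of the later rounds. The rule bounded these groups only from below. It used their means as minima and required each of their libraries to lie above the highest Met1 library. In Met2 and Met3 against Primary2 and Primary3 (6 against 6 libraries, edgeR's quasi-likelihood test with Benjamini-Hochberg adjustment over all 14925 genes), 19 of the 69 genes were called and all 19 were higher, beside a background of 30.4% of genes called, 14.3% higher and 16.1% lower. Of these, 15 belonged to the embryo-gene block and the other 4 were Krt79, B3gnt7, Pax9 and Bfsp1. The share called is near the background, and it rests on single libraries: it was 6 without Met3 rep 1, 44 without Primary2 rep 1, 35 without Met2 rep 1, 10 or 11 without Met2 rep 3, Primary2 rep 2 or 3 or any 1 Primary3 library. The fitted change was positive in 46 of 46 genes of the block, with a median log2 of 1.35, and in 15 of the other 23, with a median of 0.40, against 0.01 over all genes.

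Krt79 had the smallest p of the 69 in this comparison, with a log2 change of 3.29 (SE 0.55, adjusted p = 0.00103). B3gnt7, a glycosyltransferase that extends keratan sulfate chains, rose by 1.79 (SE 0.39, adjusted p = 0.00491), Pax9 by 1.57 (SE 0.45, adjusted p = 0.0194) and Bfsp1, a filament protein of the lens, by 0.80 (SE 0.26, adjusted p = 0.0359). In the block, Tcstv1 rose by 2.08 (SE 0.50, adjusted p = 0.00758), Gm7982 by 2.34 (SE 0.61, adjusted p = 0.012) and Sp110 by 1.90 (SE 0.55, adjusted p = 0.0196). The call of Sp110 ended without Met3 rep 1 (adjusted p = 0.0554) and that of Bfsp1 without any 1 of 8 libraries (0.0562 to 0.0819), while Krt79, B3gnt7, Tcstv1, Gm7982 and Pax9 stayed called without any 1 library. Zscan4c itself did not pass (1.21, SE 0.55, adjusted p = 0.116).

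Within round 3, every Met3 library lay above every Primary3 library in 40 of the 46 genes of the block and in 5 of the other 23, where 18.1% of all tested genes did so. The genes of the block share reads and libraries and are not separate observations. The test called 11 of the 69 in Met3 against Primary3, all higher, with 10 in the block, beside a background of 19.1% of genes called and 8.12% called higher. The block's median log2 change was 2.11, positive in 46 of 46. Tcstv1 rose by 2.69 (SE 0.72, adjusted p = 0.0216), Sp110 by 2.92 (SE 0.80, adjusted p = 0.0243) and Gm7942 by 3.15 (SE 0.88, adjusted p = 0.0259). The count fell to 1, Krt79, without Met3 rep 1 or without any 1 Primary3 library, to 7 without Met3 rep 2, and was 22, 27 and 29 without Met1 rep 2, Met2 rep 1 and Primary2 rep 1. Krt79 was higher in 3 of 3 Met3 libraries, by a log2 of 3.84 (SE 0.80, adjusted p = 0.00712).

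Within round 2, 3 of the 69 genes were called in Met2 against Primary2, beside a background of 11.8%. B3gnt7 stood at 7.53, 13.4 and 30.4 CPM in Met2, against 1.78, 1.41 and 6.01 CPM in Primary2, and rose by 2.65 (SE 0.58, adjusted p = 0.0143). Krt79 rose by 2.74 (SE 0.76, adjusted p = 0.0358), although Met2 rep 1 lay below all 3 Primary2 libraries. Ppbp fell by 1.87 (SE 0.55, adjusted p = 0.045), and its libraries did not overlap. All 3 calls were lost when only the 2 groups were fitted (adjusted p = 0.116, 0.168 and 0.152). Without Primary2 rep 1 none of the 3 stayed called (adjusted p = 0.0546 for B3gnt7, 0.0979 for Krt79 and 0.122 for Ppbp), although 4 genes were, and Krt79 also missed with the replicate block (adjusted p = 0.0701). The call of Krt79 was lost without any 1 of 7 libraries and that of Ppbp without any 1 of 11. The count was 6 without Met2 rep 1 and 1 without Met2 rep 3, Primary2 rep 2, Primary3 rep 2 or Primary3 rep 3. No gene of the block was among them (0 had an unadjusted p under 0.05 in edgeR), and the fitted change was positive in 43 of 46 with a median of 0.65. The block's sum in Primary2 was 1153 CPM in rep 1, against 172 and 238 CPM in reps 2 and 3. Without rep 1 its Primary2 mean was 205 CPM instead of 521 CPM, against a Met2 mean of 795 CPM.

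**Figure D5:**
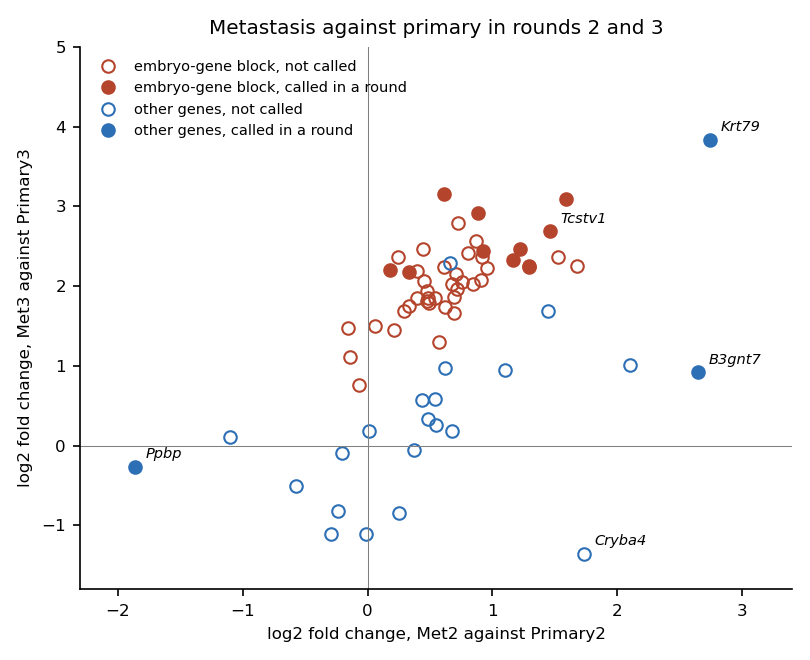
Fitted log2 fold change of each of the 69 genes in Met2 against Primary2 (horizontal) and in Met3 against Primary3 (vertical), filled where the gene was called in either round. The embryo-gene block lies above 0 on the vertical axis in all 46 genes, with a median of 2.11 there and 0.65 on the horizontal axis, and Krt79 is the gene called in both rounds. In the block's summed CPM, Primary2 rep 1 and Met3 rep 1 stood far above the other libraries of their groups.

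The difference between the rounds was tested directly and called 0 of the 69 genes, as of all 14925 (edgeR; 1817 genes and 3 of the 69 had an unadjusted p under 0.05, and DESeq2 called 208 genes, 0 of them among the 69). It was positive in 46 of 46 genes of the block, with a median log2 of 1.35. The block's high libraries Primary2 rep 1 and Met3 rep 1 both enter this difference, and their part in it was not tested. In Met3 against Met2, 0 of the 69 were called beside a background of 0.275% (2 of the 69 had an unadjusted p under 0.05, Cryba4 and Tmem92, and DESeq2 called 0), with 46 of 46 block genes positive and a median of 1.13. In Primary3 against Primary2, 0 of the 69 and 0 of all genes were called (1063 genes and 3 of the 69 had an unadjusted p under 0.05, B3gnt7, Cxcl1 and S100a4, and DESeq2 called 34 genes and 0 of the 69), and the block's median was −0.28.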

How the data were processed

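RNA was sequenced after poly(A) selection with a directional preparation, per the labels' protocols. Salmon 1.3.0 and the build mm10 are named in the submitters' processing notes. The authors deposited gene-level estimated counts (expected counts) for 54418 Ensembl gene IDs, all whole numbers in the file. How transcripts were summed, rounded or filtered, and with which annotation release, is not given in the sources used here. Symbols, gene types and positions came from GENCODE M21 (GRCm38, the build called mm10), which matched 54096 IDs. Each of the 15 columns was matched to a sample through the library name in its description.

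CPM was the count divided by the column sum, with no further scaling. The members, gene lists and tests were chosen with earlier results of these data known. Tests used edgeR 4.0.16 (R 4.3.3) with TMM scaling, filterByExpr (14925 genes kept, all 69 members among them), 1 quasi-likelihood fit over all 5 groups and Benjamini-Hochberg adjustment over all genes kept. Genes with an adjusted p under 0.05 were called. The coefficient of variation between libraries of a group was 0.343 (common dispersion 0.118). Standard errors (SE) were obtained as the log2 change over the root of F. The fit was tested on simulated data. DESeq2 1.42.0, other scalings and filters, a replicate block, a fit of only the groups compared and leaving out each library were tried as alternatives.

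Genes named are those with the 10 largest ratios of the lowest other group mean to the Met1 mean, the 8 highest mean CPM, the 4 smallest p among called members of each comparison, 3 closest on each side of the fold limit, those within 1 Mb of another member, and Gata6. Others, such as Zfp352, Chit1, Tmem92, Dhtkd1, Rep15, Sult2b1, Spns3, Lypd3 and Zbtb7c, were named after their values were seen. Shared 31-base words were counted over the GENCODE transcripts, on the transcript strand only.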

Additional observations from a re-analysis of the deposited data

How the results depend on the processing

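The number of genes meeting the rule was 69. It became 111 at a mean of 1 CPM instead of 3 and 110 over all gene types, and 48 to 82 when 1 library was left out. The lowest came without Primary2 rep 1, where 23 of the 46 genes of the embryo-gene block and 23 of the other 23 still met it. Of the 69, Met2 and Met3 against Primary2 and Primary3 called 19, which became 29 without the low-count filter, 32 with DESeq2 and 30 with the replicate block, and 6 to 44 without 1 library. Met3 against Primary3 called 11, which became 24 without the low-count filter, 37 with DESeq2, 45 with only the groups compared and 7 with the replicate block, and 1 to 29 without 1 library. Met2 against Primary2 called 3, which became 0 with only the groups compared (215 of all genes, against 1768, and 2681 with DESeq2), and 1 to 6 without 1 library. Over all genes, Met3 against Met2 called 41, and 85 without the low-count filter, 0 with the replicate block or only the groups compared and 570 with DESeq2. The comparison of Met1 with the other groups called 4086 genes, and 1477 to 4909 without 1 library. The cause of these differences was not tested. The other 3 comparisons without Met1 called 0 of the 69 under every alternative run, including DESeq2.

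Over 15 gene and comparison pairs and 330 alternative values, 281 kept the call, 49 lost it and 0 changed direction. Libraries of different groups that carry the same replicate number did not deviate together: 9 of 30 such pairs correlated above 0.1 (range −0.13 to 0.33), and 11 correlated best with their own number, so the numbers are treated as names only. With 3 libraries a group and a coefficient of variation of 0.343, small differences among the 12 libraries outside Met1 cannot be seen.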
